A study of Gallus gallus with 2 samples.

Results

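The genes described here encode the myosins and the other proteins of the sarcomere, the contractile unit of striated muscle, together with the close relatives of those proteins in smooth muscle and in cells that are not muscle. They were chosen by symbol alone, from the families of myosin heavy and light chains, myosin-binding and M-band proteins, troponins, tropomyosins, tropomodulins and leiomodins, sarcomeric actins, actinins, capping proteins and Z-disc proteins. Of 24356 rows in the table of expression values, 69 carried such a symbol. They hold 68 different symbols, because LDB3 has 2 rows. A further 10487 rows have no symbol and may hold other members. No row matched the symbols TTN and NEB, which encode the giant proteins titin and nebulin, so these were not analysed here.

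The study sequenced messenger RNA from the wings of 1 chick embryo (Gallus gallus) with overexpressed SOCS2, a suppressor of cytokine signalling. The right wing had received RCAS-GFP-SOCS2, a replicating avian retrovirus that carries GFP and SOCS2, and is called injected. Its left wing had no injection and is called uninjected. RNA was taken from each wing, labelled forelimb bud, 5 days after infection at stage HH 34, and each wing gave 1 library. Every value below is thus a single measurement with no replicate error, no test was possible, and injected against uninjected is also right against left. The labels give no injection with an empty virus among the samples used here.

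In a sarcomere, thick filaments of myosin slide along thin filaments of actin. Each myosin is built of heavy chains, which hold the motor, and of essential and regulatory light chains. On the thin filament, tropomyosin and the calcium-sensing troponin complex (subunits C, I and T) set whether myosin can bind. Z-discs anchor the thin filaments, M-bands hold the thick filaments in register, and tropomodulins, leiomodins and capping proteins set the length of the thin filament. Embryonic skeletal muscle is known to use several isoforms that the adult keeps in slow fibres or in the heart, such as ACTC1 and TNNT2. No sequence of these genes was available from the sources used here, so none is shown.

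Levels are given in TPM, which account for transcript length and add up to an equal total in both libraries, so that levels of different genes can be set side by side. The log2 ratio is that of TPM + 0.1 in the injected over the uninjected wing, and was computed for rows with a mean of both wings of at least 1 TPM and a value above 0 in each. Of the 69 rows, 67 met this. MYLK2, a myosin light chain kinase gene of skeletal muscle, stayed under the limit with 0.448 TPM in the injected and 0.352 TPM in the uninjected wing. CAPZA3, a capping protein gene known from the testis, had 0.111 TPM in the injected wing and was listed at 0 in the uninjected wing. The member nearest above the limit was TNNI3K, with a mean of 1.17 TPM. A gene is called higher or lower when its ratio passes 1.5-fold, a limit of size alone.

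As checks of the labels, SOCS2 was at 254 TPM in the injected and 54.2 TPM in the uninjected wing. TBX5, a forelimb gene, was at 137 TPM in the injected and 113 TPM in the uninjected wing. Of 13946 genes compared, the median log2 ratio was -0.04, and 40.3% had a ratio above 0.

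Most sarcomere genes were slightly more abundant in the injected wing, and few differed by more than 1.5-fold. Of the 67 compared, 51 had a log2 ratio above 0 (76.1%), and their median was 0.14. Higher by more than 1.5-fold were 5 of 67 (7.46%), against 2.23% of all genes compared. Lower by more than 1.5-fold were 2 of 67 (2.99%), against 4.79% of all genes. The higher genes were MYH7, CSRP3, MYOZ1, MYLPF and MYH7B, and the lower genes were TPM4 and TMOD4. Past 2-fold, 0 of 67 were higher and 2 were lower, against 0.502% and 1.48% of all genes. The summed TPM of all 69 rows was 16931 in the injected and 14851 in the uninjected wing, a ratio of 1.14. In bulk tissue, more muscle cells and more RNA per muscle cell cannot be told apart.

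Sarcomere genes are abundant, and ratios of abundant genes scatter less. Among the 7881 genes averaging 20 TPM or more, 0.647% were higher and 1.36% were lower by more than 1.5-fold. Of the 51 members at that level, 2 were higher (MYLPF and MYH7B) and 1 was lower (TPM4), and 39 had ratios above 0 (76.5%), against 41.1% of all genes at that level. TPM4 reached that mean only through the uninjected wing, with 15.5 TPM in the injected and 44.4 TPM in the uninjected wing. Members with a mean of 1 to 5 TPM numbered 6, of which MYH7 was higher and TMOD4 lower. In that range 7.77% of all genes were higher and 15.5% lower, so a ratio past 1.5-fold was common there.

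**Figure D1:**
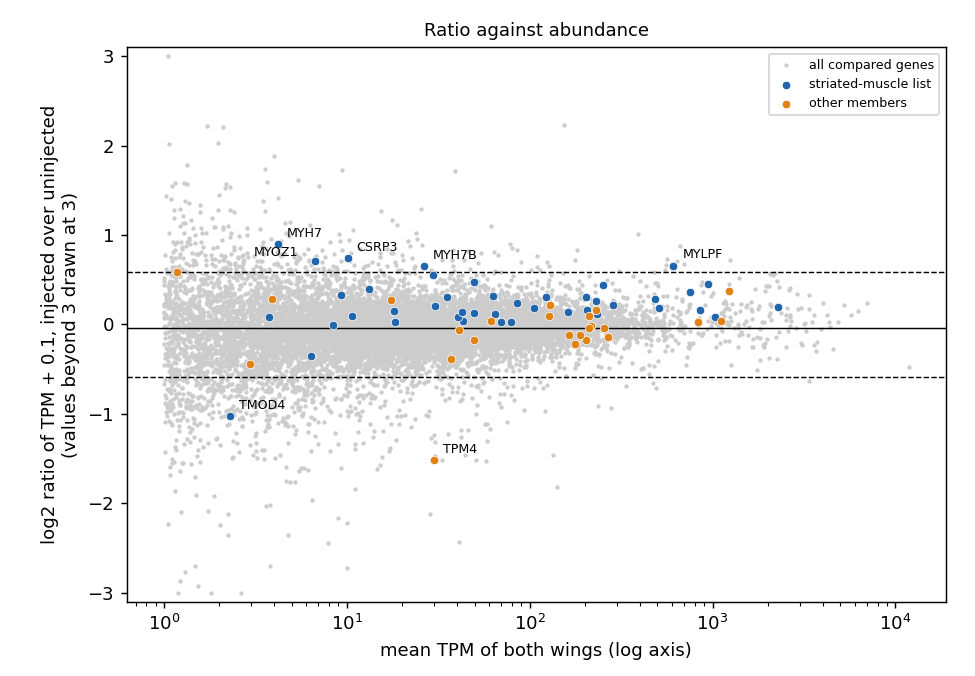
Log2 ratio of TPM + 0.1, injected over uninjected wing, against the mean TPM of both wings on a log axis, for all compared genes (grey), the striated-muscle list (blue) and the other members (orange), with the median of all genes as a solid line and 1.5-fold as dashed lines. Blue points lie mostly just above the solid line, and the 7 members past 1.5-fold are named.

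The members were divided by known expression into a list for striated muscle and the remainder, which is known from smooth muscle, from cells that are not muscle or from several tissues. Of the 43 striated-muscle members compared, 40 had a log2 ratio above 0, with a median of 0.20. All 31 of them averaging 20 TPM or more were above 0, from 0.03 for MYOM1 to 0.66 for MYLPF. The other 24 members, which include all tropomyosins and TNNI3K, had 11 ratios above 0 and a median of -0.02, close to that of all genes. The sign of that second median depended on the scaling: it lay between 0.01 and 0.02 under 3 other scalings. Summed TPM was 10986 in the injected and 9176 in the uninjected wing for the striated-muscle members, a ratio of 1.20, and 5945 TPM in the injected and 5675 TPM in the uninjected wing for the others, a ratio of 1.05.

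**Figure D2:**
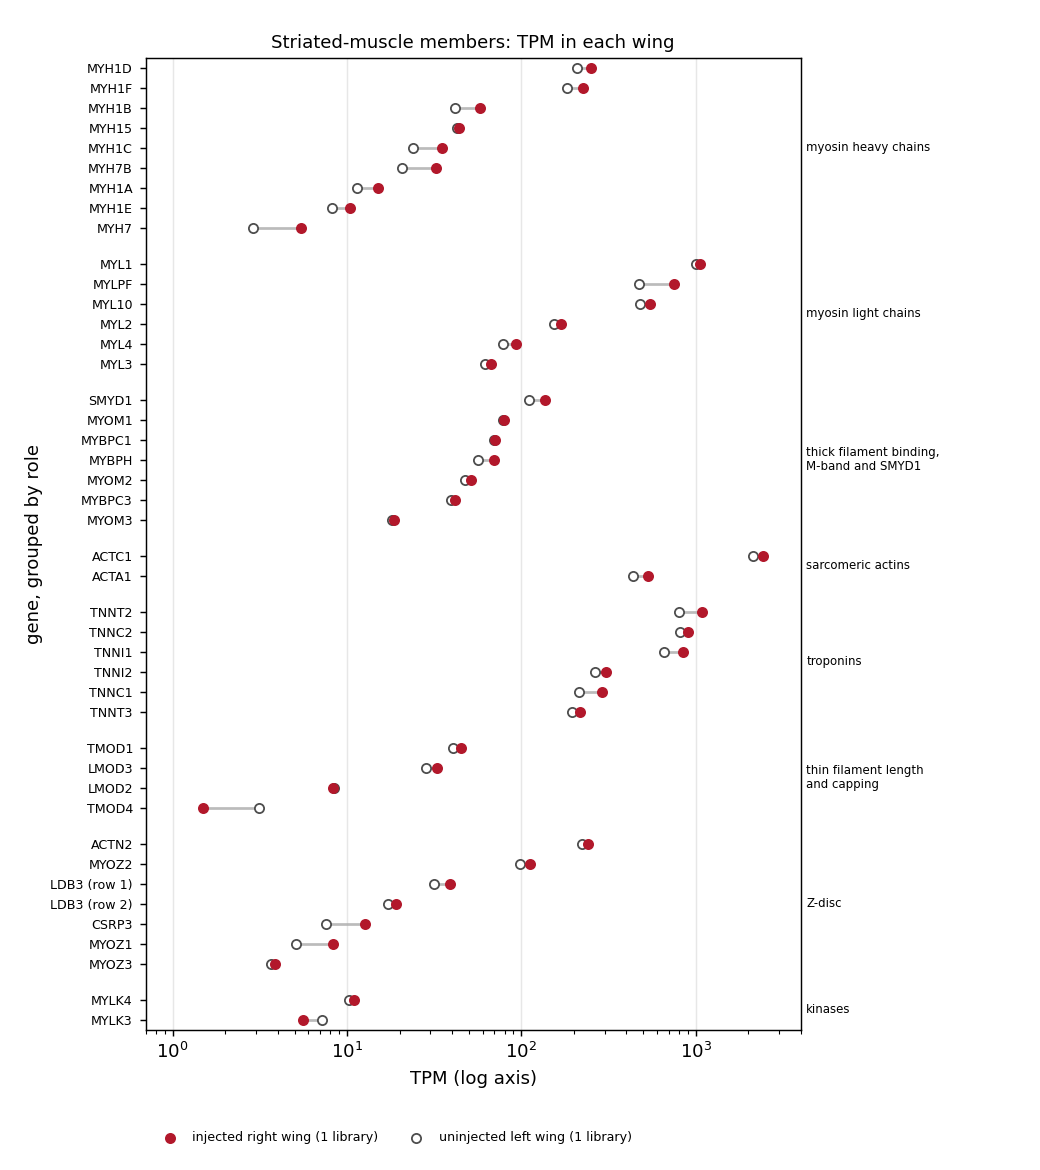
TPM on a log axis of the 43 striated-muscle members compared, in the injected right wing (filled) and the uninjected left wing (open), grouped by role, with 1 library per wing. The filled point lies to the right for 40 of the 43 rows; TMOD4, MYLK3 and LMOD2 are the exceptions.

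Myosin heavy chain genes of striated muscle were all more abundant in the injected wing. Higher by more than 1.5-fold were 2 of 9, against 2.23% of all genes compared. MYH7 (ENSGALG00000035594), known in the chicken from the atrium of the heart, had 5.47 TPM in the injected and 2.88 TPM in the uninjected wing, a log2 ratio of 0.90. The mean of MYH7 lay between 1 and 5 TPM, where 7.77% of all genes were higher. MYH7B (ENSGALG00000030985), a slow-type heavy chain, had 32.4 TPM in the injected and 20.6 TPM in the uninjected wing, a log2 ratio of 0.65. The lowest ratio of the 9 was that of MYH15, known from the ventricle of the embryonic chicken heart, at 44.0 TPM in the injected and 42.8 TPM in the uninjected wing (log2 ratio 0.04). The 3 cardiac or slow types thus held both the highest and the lowest ratios.

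The remaining 6 heavy chains, MYH1A to MYH1F, belong to the cluster of fast skeletal heavy chain genes. The most abundant was MYH1D, with 251 TPM in the injected and 208 TPM in the uninjected wing (log2 ratio 0.27), followed by MYH1F with 225 TPM in the injected and 182 TPM in the uninjected wing (0.31). MYH1B was at 57.5 TPM in the injected and 41.4 TPM in the uninjected wing (0.47), and MYH1C at 35.2 TPM in the injected and 24.0 TPM in the uninjected wing (0.55). MYH1A and MYH1E, both under 16 TPM, had ratios of 0.40 and 0.34. All 6 stayed within 1.5-fold, although MYH1C passed it under 3 other scalings (0.59 to 0.60) and with the abundance trend removed (0.60). The sum of the 6 was 594 TPM in the injected and 475 TPM in the uninjected wing, a ratio of 1.25. These genes are near-identical copies, so reads may be shared among them and the value of each is uncertain.

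Heavy chains outside striated muscle did not share that pattern of signs. MYH9 and MYH10, the motors of non-muscle myosin, were at 190 and 255 TPM in the injected wing and at 215 and 281 TPM in the uninjected wing, with log2 ratios of -0.17 and -0.14. MYH11, the smooth muscle heavy chain, was at 4.30 TPM in the injected and 3.51 TPM in the uninjected wing (0.28). None of the 3 passed 1.5-fold.

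All 9 light chain genes had ratios above 0, whether of striated muscle or not. Against 2.23% of all genes compared, 1 of 9 was higher by more than 1.5-fold. This was MYLPF (ENSGALG00000048682), the regulatory light chain of fast skeletal muscle, with 747 TPM in the injected and 473 TPM in the uninjected wing, a log2 ratio of 0.66. It ranked at place 37 from the top among the 7881 genes of at least 20 TPM. Its partner in fast fibres, the essential light chain gene MYL1, was at 1060 TPM in the injected and 998 TPM in the uninjected wing, a log2 ratio of 0.09 and the lowest of the 9. MYLPF stood at 0.704 times the level of MYL1 in the injected and at 0.474 times in the uninjected wing.

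The other striated light chains lay between these. MYL10, a regulatory light chain gene, was at 543 TPM in the injected and 476 TPM in the uninjected wing (log2 ratio 0.19). MYL4, the essential light chain of embryonic muscle and atrium, was at 92.6 TPM in the injected and 78.3 TPM in the uninjected wing (0.24). The slow and ventricular light chain genes MYL2 and MYL3 had ratios of 0.14 and 0.12. The non-muscle essential light chain gene MYL6, the second most abundant of all members, was at 1395 TPM in the injected and 1078 TPM in the uninjected wing (0.37). MYL9 and MYL12A, regulatory light chains of smooth muscle and non-muscle myosin, had ratios of 0.16 and 0.10.

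Genes of thick filament binding and the M-band, grouped with SMYD1, stayed within 1.5-fold. All 7 had log2 ratios above 0, from 0.03 to 0.31, with a median of 0.08. SMYD1, a muscle methyltransferase needed for myosin assembly in zebrafish, was at 136 TPM in the injected and 110 TPM in the uninjected wing (log2 ratio 0.31). MYBPH, a myosin-binding protein, was at 69.7 TPM in the injected and 56.1 TPM in the uninjected wing (0.31). The myosin-binding protein C genes MYBPC1, of slow muscle, and MYBPC3, of the heart, had ratios of 0.03 and 0.08. The M-band genes MYOM1, MYOM2 and MYOM3, which encode myomesins, had ratios of 0.03, 0.13 and 0.03, and MYOM1, the most abundant of them, was at 79.9 TPM in the injected and 78.3 TPM in the uninjected wing.

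**Figure D3:**
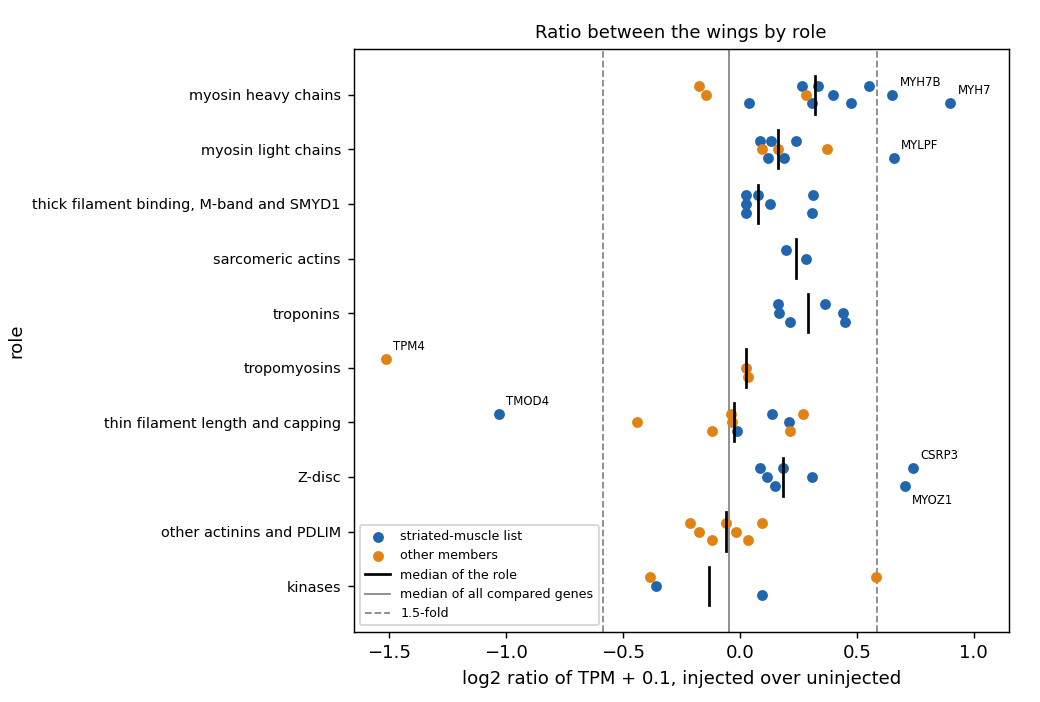
Log2 ratio of TPM + 0.1, injected over uninjected wing, for each of the 67 members compared, by role, with the median of each role as a black bar, the median of all compared genes as a solid line and 1.5-fold as dashed lines. Troponins, light chains, sarcomeric actins, Z-disc proteins and the role of thick filament binding, M-band and SMYD1 lie wholly to the right of the solid line. TPM4 and TMOD4 lie far to the left of that line.

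Actins and troponins of the thin filament were more abundant in the injected wing throughout, each by less than 1.5-fold. ACTC1, the cardiac actin that embryonic skeletal muscle also uses, was the most abundant member, at 2433 TPM in the injected and 2119 TPM in the uninjected wing (log2 ratio 0.20). ACTA1, the skeletal actin, was at 530 TPM in the injected and 436 TPM in the uninjected wing (0.28). In both wings ACTC1 thus exceeded ACTA1, by 4.59 times in the injected and 4.86 times in the uninjected wing. Reads of actin genes can be shared among near-identical copies.

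Troponin genes had a median ratio of 0.29 over 6 genes. TNNT2, the tropomyosin-binding subunit of heart and embryonic muscle, was at 1090 TPM in the injected and 798 TPM in the uninjected wing (log2 ratio 0.45). TNNC1, the calcium-binding subunit of slow and cardiac muscle, was at 289 TPM in the injected and 213 TPM in the uninjected wing (0.44). TNNI1, the slow inhibitory subunit, was at 848 TPM in the injected and 659 TPM in the uninjected wing (0.36). For each of the 3 subunits the fast partner had the smaller ratio. TNNT3 had 218 TPM in the injected and 194 TPM in the uninjected wing (0.16), TNNC2 had 906 TPM in the injected and 807 TPM in the uninjected wing (0.17), and TNNI2 had 306 TPM in the injected and 263 TPM in the uninjected wing (0.22).

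Isoform shares within a family were close between the wings, by 5 percentage points or less in all but 1 case. They are shares of the members found, and no row matched the symbols TNNT1 or TPM2. TNNT2 held 83.3% of troponin T in the injected and 80.4% in the uninjected wing, TNNI1 held 73.5% of troponin I in the injected and 71.4% in the uninjected wing, and TNNC1 held 24.2% of troponin C in the injected and 20.9% in the uninjected wing. Among the light chains the order of fast and slow types was mixed. For the regulatory chains the log2 ratio was 0.66 for fast MYLPF and 0.14 for slow MYL2. For the essential chains it was 0.09 for fast MYL1 and 0.12 for slow MYL3. MYLPF held 27.9% of the striated light chains in the injected and 21.1% in the uninjected wing, and MYL1 held 39.6% in the injected and 44.5% in the uninjected wing. MYH1D and MYH1F together led the striated heavy chains, with 37.1% and 33.3% in the injected wing and 38.5% and 33.5% in the uninjected wing.

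**Figure D4:**
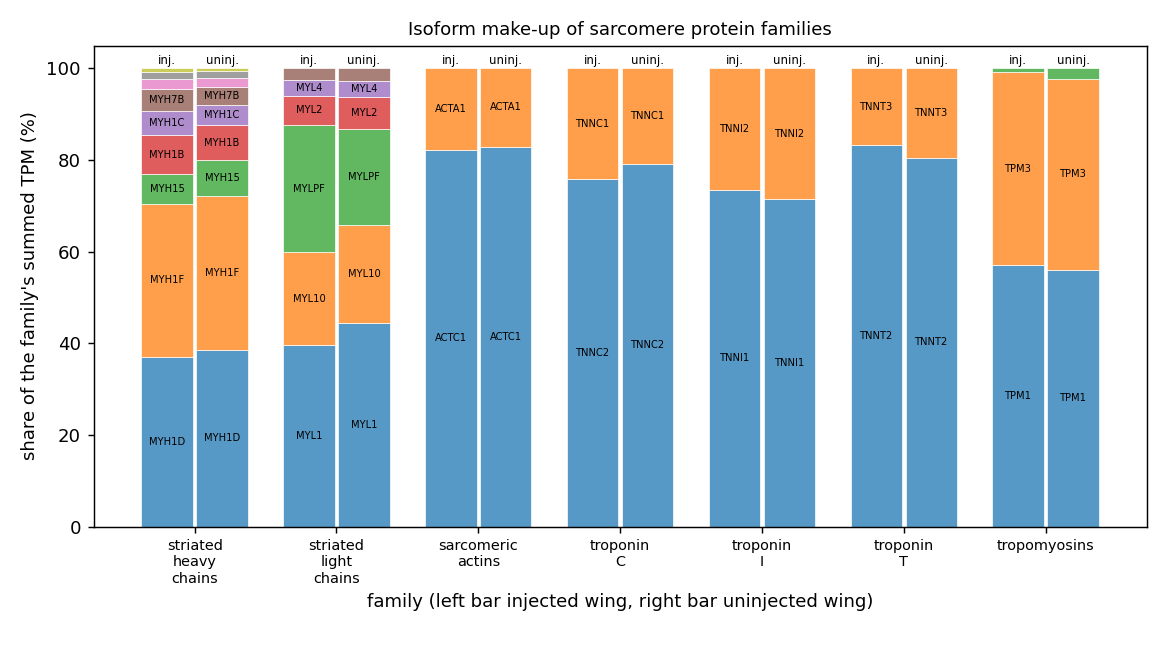
Share of each isoform in the summed TPM of the members found of its family, in percent, with the injected wing as the left bar and the uninjected wing as the right bar of each pair, and segments of 3% or less without a name. The make-up is alike in the 2 wings, with MYLPF the segment that differs most, at 27.9% in the injected and 21.1% in the uninjected wing.

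Tropomyosin genes split between 2 abundant members that hardly differed and 1 that was much lower. TPM1, the alpha tropomyosin gene of muscle and other cells, was at 1133 TPM in the injected and 1104 TPM in the uninjected wing (log2 ratio 0.04), and TPM3, of slow muscle and non-muscle cells, was at 838 TPM in the injected and 823 TPM in the uninjected wing (0.03). TPM4 (ENSGALG00000002563), which is not on the striated-muscle list, was at 15.5 TPM in the injected and 44.4 TPM in the uninjected wing. The injected level was 0.349 times the uninjected level, with a log2 ratio of -1.51. TPM4 stood at place 54 from the lowest ratio among all 13946 genes compared. No row matched the symbol TPM2, so the sum of the family covers TPM1, TPM3 and TPM4 only. TPM4 made up 0.780% of that sum in the injected and 2.25% in the uninjected wing. The sum was 1986 TPM in the injected and 1971 TPM in the uninjected wing. Genes of the non-muscle contractile apparatus, such as MYH9, MYL9, ACTN1 and ACTN4, stayed within 1.5-fold. Tropomyosin genes share stretches of sequence and are spliced in many forms, so a gene value may mix transcripts that the table does not separate.

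**Figure D5:**
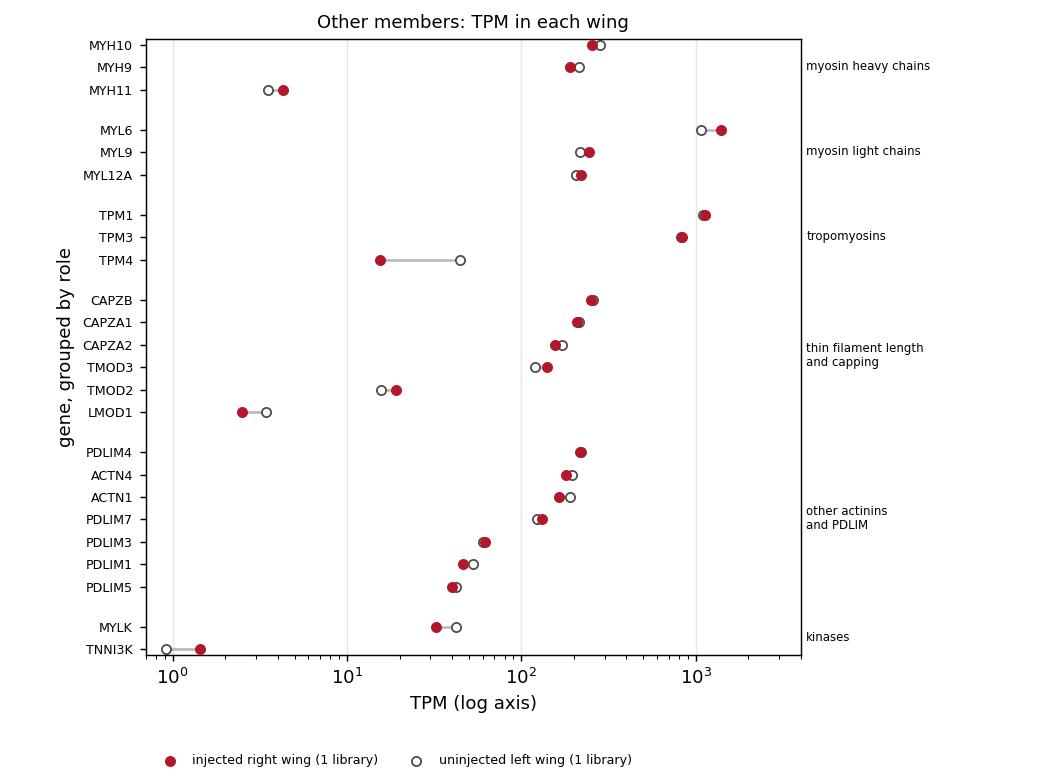
TPM on a log axis of the 24 members outside the striated-muscle list that were compared, in the injected right wing (filled) and the uninjected left wing (open), grouped by role, with 1 library per wing. Most pairs nearly overlap, and TPM4, at 15.5 TPM in the injected and 44.4 TPM in the uninjected wing, has the widest gap.

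Genes that set the length of thin filaments and cap their ends included 1 lower member among 10 compared, against 4.79% of all genes. TMOD4 (ENSGALG00000030247), the tropomodulin of fast skeletal muscle, which caps the pointed end, was at 1.49 TPM in the injected and 3.13 TPM in the uninjected wing, a log2 ratio of -1.03. Counted from the lowest ratio, it stood at place 185 of all 13946 genes. Its mean lay between 1 and 5 TPM, where 15.5% of all genes were lower by more than 1.5-fold. The other tropomodulin genes had ratios above 0. TMOD1, known from red cells and the heart as well as from skeletal muscle, was at 44.8 TPM in the injected and 40.6 TPM in the uninjected wing (0.14), TMOD2 had a ratio of 0.27, and TMOD3, the widely expressed form, was at 139 TPM in the injected and 120 TPM in the uninjected wing (0.22).

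The leiomodins, which start new actin filaments, went in different directions within 1.5-fold. LMOD3, of skeletal muscle, was at 32.7 TPM in the injected and 28.3 TPM in the uninjected wing (log2 ratio 0.21). LMOD2, best known from the heart, had a ratio of -0.01, and LMOD1, of smooth muscle, had a ratio of -0.44 at 2.50 TPM in the injected and 3.42 TPM in the uninjected wing. The subunits of the capping protein that holds the barbed end were at nearly equal levels. CAPZB was at 250.3 TPM in the injected and 257 TPM in the uninjected wing (-0.04), CAPZA1 had a ratio of -0.03 and CAPZA2 one of -0.12.

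Z-disc genes of striated muscle all had ratios above 0. By more than 1.5-fold 2 of 7 rows were higher, against 2.23% of all genes compared. Both had means between 5 and 20 TPM, where 1.95% of all genes were higher. CSRP3 (ENSGALG00000004044), the muscle LIM protein, was at 12.7 TPM in the injected and 7.55 TPM in the uninjected wing, a log2 ratio of 0.74. MYOZ1 (ENSGALG00000005226), which ties the phosphatase calcineurin to the Z-disc in fast fibres, was at 8.36 TPM in the injected and 5.08 TPM in the uninjected wing (0.71). The more abundant Z-disc genes differed less. ACTN2, the actinin that crosslinks thin filaments there, was at 242 TPM in the injected and 224 TPM in the uninjected wing (0.12), and MYOZ2, the slow and cardiac relative of MYOZ1, was at 112 TPM in the injected and 98.7 TPM in the uninjected wing (0.19). The 2 rows of LDB3, a PDZ and LIM protein of the Z-disc, had ratios of 0.31 and 0.15, and MYOZ3 had a ratio of 0.09.

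The actinins of non-muscle cells and the PDLIM genes, whose products bind actinin, had a median log2 ratio of -0.06, against -0.04 for all genes compared. ACTN1 was at 164 TPM in the injected and 190.2 TPM in the uninjected wing (log2 ratio -0.21), and ACTN4 at 180 TPM in the injected and 195 TPM in the uninjected wing (-0.12). Of the 5 PDLIM genes, PDLIM4 was the most abundant, at 217 TPM in the injected and 219 TPM in the uninjected wing (-0.01), and the others ranged from -0.17 for PDLIM1 to 0.10 for PDLIM7. None of these 7 passed 1.5-fold.

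Of the kinases, MYLK, the light chain kinase of smooth muscle and non-muscle cells, was at 32.4 TPM in the injected and 42.3 TPM in the uninjected wing (log2 ratio -0.38). MYLK3, of the heart, had a ratio of -0.36 and MYLK4 one of 0.09. TNNI3K is a cardiac kinase that takes its name from troponin I and is no part of the troponin complex. At 1.43 TPM in the injected and 0.919 TPM in the uninjected wing, its ratio of 0.58 lay just under the threshold.

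Other genes of striated muscle, for the membrane, the calcium store, the nerve contact and the cytoskeleton, were examined from a list of 59. Of these, 39 were found and 36 compared. None passed 1.5-fold, against 2.23% higher and 4.79% lower of all genes, and 26 had ratios above 0, with a median of 0.12. The most abundant were PARVB, an actin-linked adhesion protein, at 377 TPM in the injected and 366 TPM in the uninjected wing (log2 ratio 0.04), and DES, the muscle intermediate filament desmin, at 224 TPM in the injected and 241 TPM in the uninjected wing (-0.10). ATP2A2, the calcium pump of slow and cardiac muscle, was at 155 TPM in the injected and 141 TPM in the uninjected wing (0.14). MUSK, the receptor kinase of the nerve-muscle contact, had the highest ratio, 0.56, at 7.21 TPM in the injected and 4.84 TPM in the uninjected wing, and it passed 1.5-fold under 3 other scalings (0.60 to 0.61) and with the abundance trend removed (0.67). UNC45B, a myosin chaperone, had a ratio of 0.13.

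Markers of the muscle lineage and of other tissues also differed between the wings, and their part in the values above was not tested. Of all genes compared, 2.23% were higher and 4.79% were lower by more than 1.5-fold. Of 8 genes for muscle precursors, MYF5 (log2 ratio 1.11) and LBX1 (0.59) were higher, with a summed level of 539 TPM in the injected and 494 TPM in the uninjected wing. Of 8 compared for myoblasts and fibres, none passed 1.5-fold, 5 had ratios above 0 and the median was 0.17. These share CHRNA1, CHRND, CHRNG and DES with the list of other striated muscle genes above, so the lists are not separate readings. MYOD1 was at 116 TPM in the injected and 106 TPM in the uninjected wing. MYOG was at 113 TPM in the injected and 94.9 TPM in the uninjected wing. Under 0 were the log2 ratios of MYF6 (-0.31), DES (-0.10) and MEF2C (-0.08). Of 10 genes of smooth muscle and pericytes, ACTG2 was higher (0.85), with a summed level of 710.1 TPM in the injected and 682 TPM in the uninjected wing. That sum includes DES, with 224 TPM in the injected and 241 TPM in the uninjected wing. Of 5 heart genes found, NPPA and NKX2-5 were listed at 0 in both wings, and RYR2 was under 1 TPM in both. The other 2 were compared and stayed within 1.5-fold: TBX20 was at 8.62 TPM in the injected and 6.39 TPM in the uninjected wing (log2 ratio 0.43), and TBX5, given above as a forelimb gene, had a ratio of 0.28.

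Further from muscle, the nerve markers SOX10 and STMN2 were higher, SOX10 at 23.8 TPM in the injected and 15.6 TPM in the uninjected wing (log2 ratio 0.61) and STMN2 at 11.6 TPM in the injected and 7.06 TPM in the uninjected wing (0.71). The 5 cartilage markers summed to 2225 TPM in the injected and 1853 TPM in the uninjected wing with none past 1.5-fold. All 5 had log2 ratios above 0, with a median of 0.19, beside 0.20 for the striated-muscle members. Red cell markers had 4 of 8 rows lower, against 4.79% of all genes compared. They summed to 2576 TPM in the injected and 2833 TPM in the uninjected wing. The most abundant of them, HBA1 (-0.18) and HBBA (0.01), stayed within 1.5-fold. Of 6 epidermis markers 1, ESRP1, was lower, and 0 had ratios above 0. All 12 mitochondrially encoded genes found had ratios above 0 with a median of 0.34, larger than the 0.20 of the striated-muscle members. Levels of such genes can depend on RNA handling as well as on tissue, and neither was tested.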

How the data were processed

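The authors deposited TPM, with 1 column for each of 2 libraries, and both columns have the same total. Per the submitters' processing notes, HISAT2 2.2.1, StringTie 2.1.7 and the build GRCg6a were used; the sources used here do not give how each was used or with which annotation. TPM keeps no read depth, so the depth is unknown and no counting interval is given. A table of counts, with 2 columns whose names match neither sample's title, was not used.

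Short RNAs were left out. Genes averaging 1 TPM or more and above 0 in both libraries were compared by the log2 ratio of TPM + 0.1, which understates the change of low genes, and called past 1.5-fold. With 1 library per wing there is no p-value, SD or SE. Members were matched by symbol, and every member could be named; text names all members past 1.5-fold, the most abundant of each role and isoforms set side by side. From the other lists it names genes past 1.5-fold, abundant ones and, outside that rule, some chosen after their values were seen. Some genes of the marker lists are not reported here. Members and lists were chosen with earlier results of these data known. A RefSeq gene table of assembly GRCg7b, which holds 67 of the 68 symbols, served for gene neighbours only; a planned search of promoters for motifs was not run for lack of sequence. Alternatives were 2 pseudocounts, 2 filters, 3 scalings (median of ratios, upper quartile, mean trimmed by 30% at each end), removal of the trend over abundance (running median of 501 genes) and a 2-fold rule; leaving out the MYH1 cluster was added after the data were examined. The computation was tested on simulated data. Python 3.11.15, pandas 2.3.3, NumPy 2.4.6 and matplotlib 3.10.9 were used.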

Additional observations from a re-analysis of the deposited data

How the results depend on the processing

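The median log2 ratio of all sarcomere members and that of the striated-muscle members kept their sign under every alternative run, within 1.5 times of the reported value, and the MYH1 cluster did not decide them. The median of the other members, reported at -0.02, was 0.02 with the median of ratios (0.0199) and with the trimmed mean (0.0215), 0.0086 with the upper quartile, and -0.0122 with the abundance trend removed; these scalings move the median of all genes by less than 0.1. The count of higher members, 5, was 0 under the 2-fold rule, where TPM4 and TMOD4 remained lower. Past 2-fold, 0.502% of all genes were higher and 1.48% were lower. Counts of 5 higher and 2 lower became 4 and 1 with a minimum mean of 5 TPM, which leaves out MYH7 and TMOD4. Of all genes averaging at least 5 TPM, 1.06% were higher and 2.54% were lower. The scalings and the removed trend each gave 7 higher members, by adding TNNI3K and MYH1C. The share of all genes that were higher rose as well, from 2.23% to between 2.61% and 2.75% under the 3 scalings. With the trend removed it was 3.105%. A pseudocount of 0.01 TPM gave 6 higher members, by adding TNNI3K, beside 2.39% of all genes. The count of other muscle genes past 1.5-fold, 0, was 1 under the 3 scalings and with the trend removed (MUSK), and 1 without a filter (ANKRD2, lower, at under 1 TPM in both wings). No paired analysis was possible because the wings come from 1 embryo, a single pair. The depth of the libraries is unknown, which limits members of a few TPM most.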

Other observations

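Several sarcomere genes are neighbours in the genome, by the gene order of the RefSeq assembly GRCg7b, and their ratios are set side by side here as values. TNNI1 and TNNT2, with 2 annotated genes between them, had log2 ratios of 0.36 and 0.45. TNNT3 and TNNI2, the pair of fast troponin genes, with 3 genes between them, had 0.16 and 0.22. TMOD2 and TMOD3, which adjoin each other, had 0.27 and 0.22. In the MYH1 cluster, MYH1D and MYH1F adjoin, and so do MYH1E and MYH1C, at 0.27 and 0.31 and at 0.34 and 0.55. MYH1A, at 0.40, lies between MYH1F and MYH1B, with 1 gene on each side. MYH1B, at 0.47, and MYH1E have 2 genes between them. MYL12A, a non-muscle light chain gene, and MYOM1, an M-band gene, also adjoin, at 0.10 and 0.03. MYOZ1 and PDLIM1, with 5 genes between them, had ratios of opposite sign, 0.71 and -0.17. Whether neighbours are closer in ratio than other members was not tested.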
